A study of Homo sapiens with 12 samples.

Results

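The miR-181 family was followed in the small RNA of K562, an erythroleukaemia line of human origin with features of erythroid and megakaryocytic precursors. Its members were chosen by name alone, as every row whose name begins with miR-181 and a letter from a to d. This gave 6 mature strands among the 753 microRNAs present in both deposited tables, of 952 in either. They are the 5p strands miR-181a-5p, miR-181b-5p, miR-181c-5p and miR-181d-5p, and the 3p strands miR-181a-2-3p and miR-181b-2-3p. RefSeq names 10 strands of the family, and the other 4 (miR-181a-3p, miR-181b-3p, miR-181c-3p and miR-181d-3p) had no row and are not analysed here.

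The 12 libraries formed 4 groups of 3 biological replicates. K562 cells given a guide RNA directed at CYRANO, a long non-coding RNA (sgCYRANO), were compared with cells that received a non-targeting guide (sgNT). K562 cells of genotype ZSWIM8-/- (ZSWIM8 KO) were compared with wild-type cells (WT), and the labels list both as having received no guide RNA. The labels do not say how the knockout was made, whether it is 1 clone or whether the guided cells are a pool. The data are the authors' own comparisons, 1 table each, with no value for a single library, so replicate values and their SD cannot be given. The headers do not name the numerator of the fold change, and it was taken as the second group in the table's name. With the opposite reading, the 2 means of each pair would swap. Read as here, miR-7-5p is higher in sgCYRANO, the direction known for loss of CYRANO.

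MicroRNAs are cut from hairpin precursors as a duplex of a 5p and a 3p strand, 1 of which is usually kept in an Argonaute protein as the guide strand while its partner, the passenger strand, is discarded. The guide strand pairs with messenger RNAs mainly through its seed, bases 2 to 8. The miR-181 family is best known from blood cell development, where in mouse it promotes B-lymphoid differentiation and tunes T-cell receptor signalling by repressing phosphatases. In target-directed microRNA decay, an extensively paired target RNA exposes Argonaute to a ubiquitin ligase with ZSWIM8 as its substrate receptor, and the bound strand is lost. CYRANO is the target that directs decay of miR-7. Decay of this kind acts on the loaded strand, whereas a change in transcription of a hairpin acts on both arms. The arms of a hairpin are therefore set against each other here. miR-181a-5p and miR-181b-5p each arise from 2 loci, and their measured 3p strands from 1. For these pairs the comparison cannot tell decay from a change in transcription at 1 locus.

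The mature strands are printed from RefSeq (GRCh38.p14), 5′ to 3′ with the seed in capitals, because they show which strands share a seed and how few bases separate them. The sequences of the 6 measured strands and of the unmeasured 3p strand of the other miR-181a hairpin are as follows.
miR-181a-5p: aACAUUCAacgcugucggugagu
miR-181b-5p: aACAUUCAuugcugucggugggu
miR-181d-5p: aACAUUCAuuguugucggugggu
miR-181c-5p: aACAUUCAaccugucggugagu
miR-181a-2-3p: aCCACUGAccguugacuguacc
miR-181b-2-3p: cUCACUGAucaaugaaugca
miR-181a-3p: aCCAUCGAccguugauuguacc

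All 4 5p strands carried the same seed, so they form 1 seed family. Counting positions from 1 at the 5′ end, miR-181b-5p differed from miR-181a-5p by A9U, C10U and A21G. miR-181d-5p differed from miR-181b-5p by the single substitution C12U, and miR-181c-5p lacked 1 internal base of miR-181a-5p. The printed 3p strands had seeds of their own, which differed from that of the 5p strands and from each other. miR-4262 was the 1 further strand in RefSeq with the 5p seed, and it had no row in either table.

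The family lies in 3 clusters of 2 hairpins (GENCODE v29, GRCh38). MIR181A1 and MIR181B1 lie on the - strand of chromosome 1, at chr1:198859044-198859153 and chr1:198858873-198858982, within an intron of the non-coding host gene MIR181A1HG. MIR181A2 and MIR181B2 lie on the + strand of chromosome 9, at chr9:124692442-124692551 and chr9:124693710-124693798, within an intron of MIR181A2HG and antisense to an intron of NR6A1. MIR181C and MIR181D lie on the + strand of chromosome 19, at chr19:13874699-13874808 and chr19:13874875-13875011, within the gene bounds of NANOS3 and outside its annotated exons. miR-181a-5p and miR-181b-5p come from both the chromosome 1 and the chromosome 9 hairpins, with identical sequence. miR-181a-2-3p and miR-181b-2-3p come from the chromosome 9 hairpins. miR-181a-2-3p differs from miR-181a-3p of chromosome 1 by C5U, U6C and C16U, and is the strand that tells the 2 miR-181a hairpins apart. The sources used here do not say how reads that could belong to several near-identical strands were assigned. The split between miR-181b-5p and miR-181d-5p in particular is uncertain. Nor do the sources say how reads matching both loci of miR-181a-5p or miR-181b-5p were counted, so the levels of these 5p strands are uncertain.

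Levels are group means in counts per 1000000 reads (CPM), recovered from the deposited mean log2 CPM and log2 fold change. Library totals, read from the smallest steps between these means, ran from 861000 to 2490000 reads. They summed to 5290000 reads in sgCYRANO and 5490000 in sgNT, and to 7060000 in ZSWIM8 KO and 3810000 in WT. A group mean of 0 would therefore allow up to 0.567 CPM in sgCYRANO, 0.546 in sgNT, 0.425 in ZSWIM8 KO and 0.788 in WT (3 counts over the group, counting error only). The erythroid and megakaryocytic microRNAs miR-451a, miR-144-3p, miR-486-5p and miR-126-3p were measured in both tables, with summed levels of 46664 CPM in sgCYRANO, 47947 CPM in sgNT, 62808 CPM in ZSWIM8 KO and 57919 CPM in WT. Most of each sum was miR-126-3p, with 48225 CPM in ZSWIM8 KO and 42776 CPM in WT. The erythroid miR-144-3p had 239 CPM in ZSWIM8 KO and 119 CPM in WT and did not pass (adjusted p = 0.364 in the authors' deposited table, edgeR). miR-451a had 956 CPM in ZSWIM8 KO and 574 CPM in WT, and a log2 fold change of 0.74 ± 0.62 that missed the threshold (adjusted p = 0.583 in the authors' deposited table, edgeR). The median log2 fold change of the 4 was 0.45 in ZSWIM8 KO and -0.01 in sgCYRANO, and the part of these differences in the miR-181 values was not tested. Of the markers of other tissues, the neuronal miR-124-3p had no row, the hepatic miR-122-5p and the muscle strand miR-1-3p stayed between 0.748 and 2.08 CPM, and the epithelial miR-200c-3p between 68.8 and 94.6 CPM. Smooth muscle and fibroblast markers summed to between 21.0 and 31.1 CPM, and no marker of any of these lists passed the test in either comparison. In these bulk samples, fewer cells with a microRNA and less of it per cell cannot be told apart.

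The miR-181 seed family made up a small part of the counted reads in every group. Its 4 5p strands together had 129 CPM in sgCYRANO and 135 CPM in sgNT, and 139 CPM in ZSWIM8 KO and 99.2 CPM in WT. By summed level this seed ranked 101st in sgCYRANO and sgNT, 104th in ZSWIM8 KO and 112th in WT among the 756 seeds of the 865 microRNAs with a RefSeq sequence. The 5p sum was 1.40 times higher in ZSWIM8 KO than in WT and 0.954 times that of sgNT in sgCYRANO. The 3p sum went the other way in ZSWIM8 KO, at 30.6 CPM against 53.2 CPM in WT, a ratio of 0.574, and was 48.6 CPM in sgCYRANO against 66.2 CPM in sgNT, a ratio of 0.734. These sums are descriptions and carry no test.

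**Figure D1:**
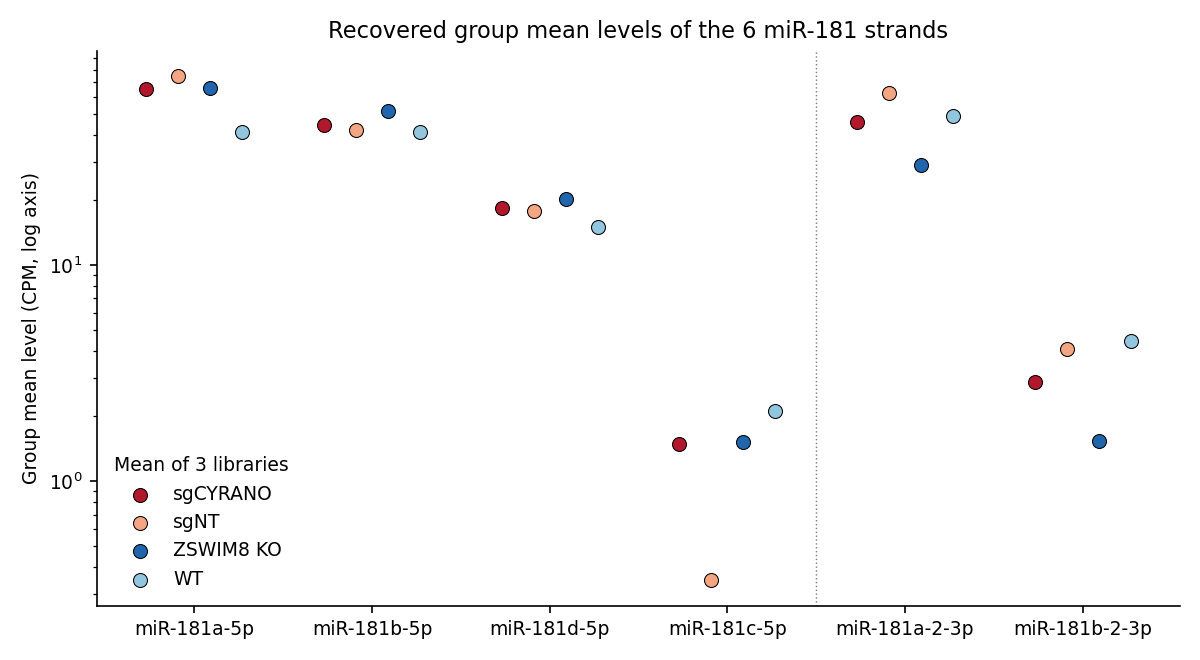
Recovered group mean level (CPM, log axis) of each miR-181 strand in sgCYRANO, sgNT, ZSWIM8 KO and WT, 1 point per group of 3 libraries, with no error bars because library values were not used. 5p strands are left of the dotted line and 3p strands right of it. miR-181a-5p lies between 41.0 and 74.7 CPM. Both 3p strands are lower in ZSWIM8 KO than in WT and lower in sgCYRANO than in sgNT.

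The family's best-studied member, hsa-miR-181a-5p, had 64.7 CPM in sgCYRANO and 74.7 CPM in sgNT, and 65.9 CPM in ZSWIM8 KO and 41.0 CPM in WT. The WT mean was the lowest of the 4, although the 2 tables were normalized separately. About 465 reads lay behind the ZSWIM8 KO mean and 156 behind the WT mean. hsa-miR-181b-5p had 44.1 CPM in sgCYRANO and 42.0 CPM in sgNT, and 51.2 CPM in ZSWIM8 KO and 41.1 CPM in WT. miR-181a-5p thus exceeded miR-181b-5p 1.47-fold in sgCYRANO, 1.78-fold in sgNT and 1.29-fold in ZSWIM8 KO, while both were level in WT, at a ratio of 0.997.

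miR-181d-5p was lower than both, at 18.3 CPM in sgCYRANO and 17.7 CPM in sgNT, and 20.1 CPM in ZSWIM8 KO and 15.0 CPM in WT. It made up between 13.1% and 15.2% of the 5p sum in every group. miR-181c-5p, from the same chromosome 19 cluster, was near the limit of detection, at 1.49 CPM in sgCYRANO and 0.348 CPM in sgNT, and 1.52 CPM in ZSWIM8 KO and 2.10 CPM in WT. Its sgNT mean lay under the limit of 3 counts. The order of the 5p strands was a, b, d, c in sgCYRANO, sgNT and ZSWIM8 KO, and a and b could not be ordered in WT.

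The group means of the scarce strands are sums of so few reads that whole reads could be read from them, to within 0.001 CPM, though not tied to replicate numbers. miR-181c-5p rested on 8 reads in sgCYRANO, spread as 1, 4 and 3 over the libraries, and on 2 reads in sgNT, from 2 libraries, with 0 in the other. It rested on 10 reads in ZSWIM8 KO, of which 7 came from the library with the smallest total, and on 8 reads in WT, spread as 2, 2 and 4. The ratio of 8 to 2 reads, scaled to the group totals, was 4.15 with an exact 95% interval of 0.828 to 40.1 for counting error alone. No difference in miR-181c-5p was detectable at this depth.

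Among the 3p strands, hsa-miR-181a-2-3p had counted levels of the same order as those of its partner. It had 45.8 CPM in sgCYRANO and 62.1 CPM in sgNT, and 29.0 CPM in ZSWIM8 KO and 48.8 CPM in WT. miR-181b-2-3p had 2.87 CPM in sgCYRANO and 4.09 CPM in sgNT, and 1.53 CPM in ZSWIM8 KO and 4.46 CPM in WT. Its means rested on 15 reads in sgCYRANO and 20 to 26 in sgNT, and on 11 reads in ZSWIM8 KO and 13 to 16 in WT. The 3p strands of the chromosome 9 hairpins thus had unequal counted levels, with miR-181a-2-3p between 10.9 and 19.0 times miR-181b-2-3p in the 4 groups.

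The comparison of sgCYRANO with sgNT asks which microRNAs differ when the guide is directed at this decay target. None of the 6 miR-181 strands passed an adjusted p of 0.05 in sgCYRANO (the edgeR quasi-likelihood test in the authors' deposited table), where 0.119% of the 837 microRNAs tested passed. At an unadjusted p under 0.05 the count was 1 of 6, against 5.85% of all microRNAs. The 1 microRNA that passed the adjusted threshold was miR-7-5p, with 34885 CPM in sgCYRANO and 6102 CPM in sgNT. The median log2 fold change of the 6 strands was -0.08, against 0.01 over all microRNAs tested.

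The 3 better measured 5p strands had small fold changes in sgCYRANO. The authors' deposited table gave a log2 fold change of -0.21 ± 0.16 for miR-181a-5p, where the error is the standard error implied by the deposited p. The 95% interval of its fold ran from 0.698 to 1.08. For miR-181b-5p the authors' deposited table gave 0.07 ± 0.18, with a fold between 0.818 and 1.35, and for miR-181d-5p 0.05 ± 0.28, with a fold between 0.710 and 1.50. Changes of 2-fold or more in these strands therefore lay outside their intervals, as far as these errors hold. The authors' deposited table gave 1.78 ± 1.17 for miR-181c-5p, a value that rests on 2 reads in sgNT.

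The smallest p of the family in sgCYRANO belonged to miR-181a-2-3p. The authors' deposited table gave it a log2 fold change of -0.44 ± 0.17 (p = 0.011, adjusted p = 0.631). It ranked 12th of 837 by p. For miR-181b-2-3p the authors' deposited table gave -0.49 ± 0.61 (adjusted p = 0.980). Both 3p strands thus had lower means in sgCYRANO than in sgNT, and neither passed the test.

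**Figure D2:**
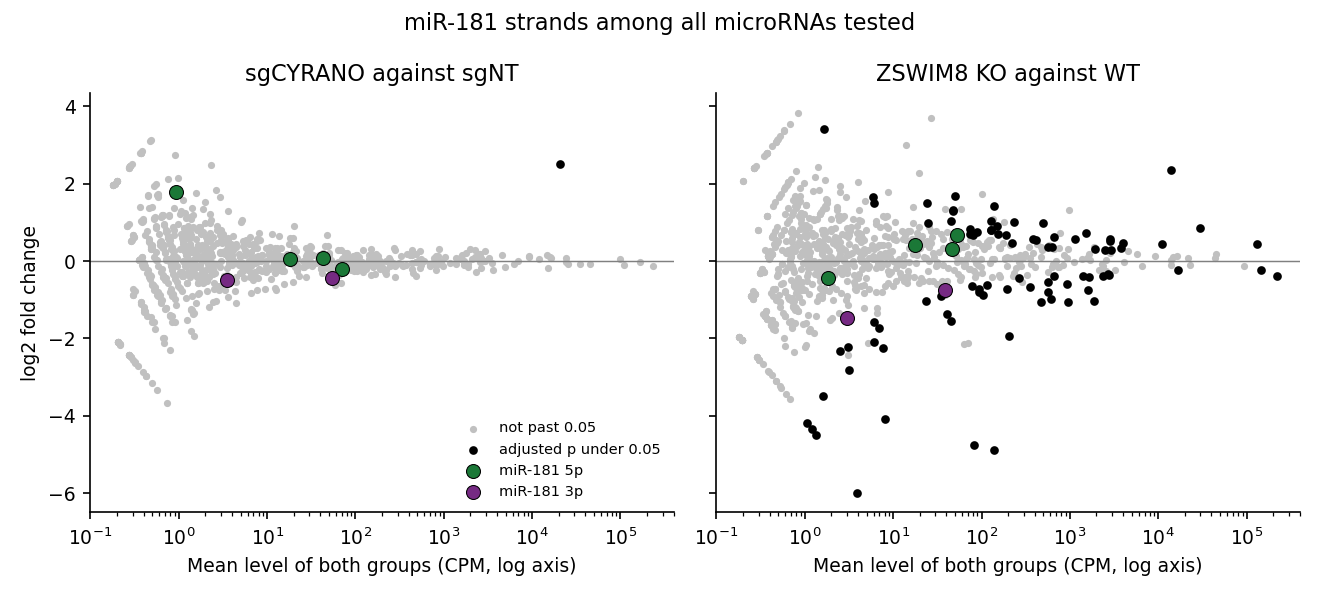
Log2 fold change against mean level of both groups (CPM, log axis) for all 837 microRNAs of sgCYRANO against sgNT and all 868 of ZSWIM8 KO against WT. Black points passed an adjusted p of 0.05, green points are miR-181 5p strands and purple points 3p strands. In both panels the miR-181 strands lie among microRNAs that did not pass, and the 3p strands lie below 0.

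The knockout comparison asks which microRNAs differ between cells without and with the ligase receptor ZSWIM8. Other differences between the ZSWIM8 KO and WT cells cannot be told apart from its loss. None of the 6 miR-181 strands passed an adjusted p of 0.05 in ZSWIM8 KO, where 9.91% of the 868 microRNAs tested passed (the edgeR quasi-likelihood test in the authors' deposited table). At an unadjusted p under 0.05 the count was 3 of 6, against 19.8% of all microRNAs. Of the 4 5p strands 3 had a positive log2 fold change, and both 3p strands had a negative one. The median was 0.37 for the 5p strands and -1.11 for the 3p strands, against 0.08 over all microRNAs tested. The 3p median is the midpoint of only 2 strands. Of these, miR-181b-2-3p rested on 11 reads in ZSWIM8 KO and 13 to 16 in WT. miR-7-5p, the strand directed to decay by CYRANO, had 23494 CPM in ZSWIM8 KO and 4617 CPM in WT.

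Both miR-181a-5p and miR-181a-2-3p came close to the threshold in ZSWIM8 KO, in opposite directions. For miR-181a-5p the authors' deposited table gave a log2 fold change of 0.68 ± 0.25 (adjusted p = 0.064), and the 95% interval of the fold ran from 1.14 to 2.27. For miR-181a-2-3p the authors' deposited table gave -0.75 ± 0.28 (adjusted p = 0.069), and a fold between 0.407 and 0.874. Their ranks by p were 95th and 100th of 868, just behind the 86 microRNAs that passed. Among microRNAs of like abundance, 20% had a smaller p than miR-181a-5p and 19.6% a smaller p than miR-181a-2-3p. With p-values adjusted over microRNAs at 10 CPM or more alone, both passed, with adjusted p-values of 0.027 for miR-181a-5p and 0.030 for miR-181a-2-3p. Centring the fold changes on the median of 0.13 called miR-181a-2-3p alone (adjusted p = 0.022).

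The other 5p strands had smaller values. In ZSWIM8 KO, 0.32 ± 0.26 was listed for miR-181b-5p in the authors' deposited table (adjusted p = 0.575), with a fold between 0.871 and 1.78. For miR-181d-5p the authors' deposited table gave 0.42 ± 0.39 (adjusted p = 0.612), with a fold between 0.788 and 2.26. miR-181c-5p, with 10 and 8 reads in ZSWIM8 KO and WT, had -0.44 ± 0.82 in the authors' deposited table (adjusted p = 0.848). miR-181b-2-3p, the other 3p strand of chromosome 9, had -1.47 ± 0.69 in the authors' deposited table (p = 0.034, adjusted p = 0.194).

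**Figure D3:**
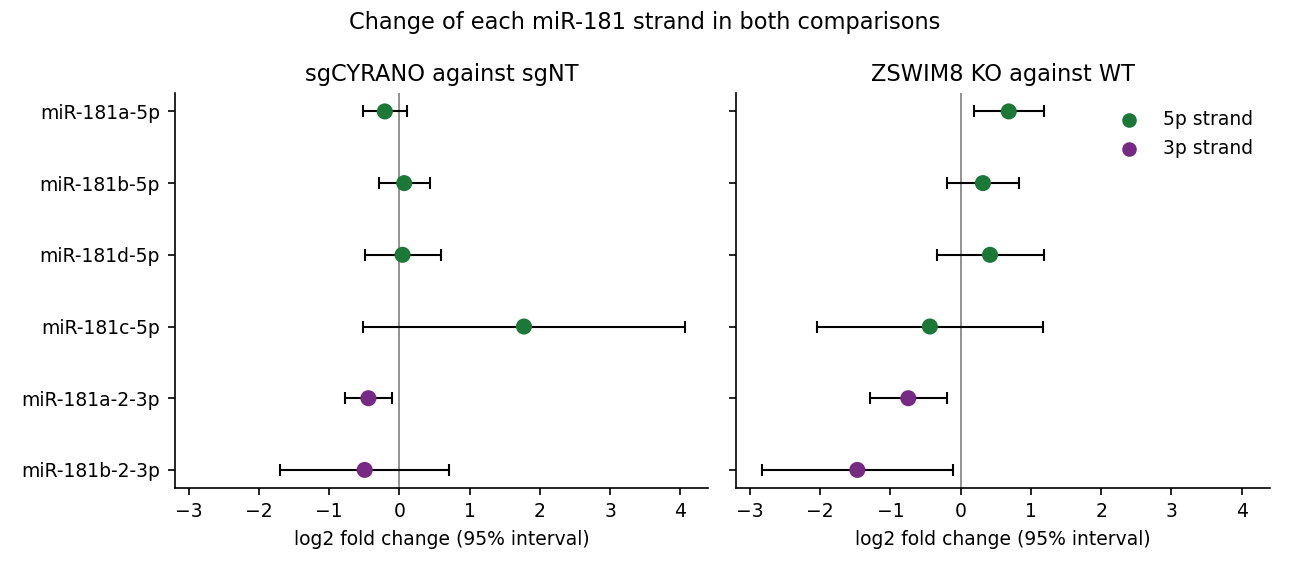
Log2 fold change of each miR-181 strand with its 95% interval, for sgCYRANO against sgNT (left) and ZSWIM8 KO against WT (right). Green points are 5p strands and purple points 3p strands. In ZSWIM8 KO the interval of miR-181a-5p lies above 0 and those of miR-181a-2-3p and miR-181b-2-3p lie below it, while no strand passed the adjusted test.

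The counted levels of miR-181a-5p and miR-181a-2-3p moved apart in ZSWIM8 KO. The ratio of miR-181a-5p to miR-181a-2-3p was 2.27 in ZSWIM8 KO and 0.840 in WT. The counted level was thus higher for the 5p strand in ZSWIM8 KO and for the 3p strand in WT. Which arm was the more abundant in the cells is uncertain, since the counting of reads matching both loci of miR-181a-5p is not stated. The log2 fold change of the 5p strand exceeded that of the 3p strand by 1.43 ± 0.38, or 2.69-fold with a 95% interval of 1.61 to 4.51. This passed with an adjusted p of 0.0041 (two-sided normal test of the difference, Benjamini-Hochberg over 209 hairpins), where 5.26% of hairpins passed and 2.87% passed with the 5p strand over the 3p strand. Among the 71 hairpins with both arms at 10 CPM or more, this was the second largest rise of 5p over 3p, after that of the miR-7-1 hairpin at 3.13 ± 0.32. All 11 hairpins that passed, 6 of them with the 5p strand over the 3p strand, belonged to those 71. The median absolute arm difference of those 71 hairpins was 0.35.

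For the miR-181b-2 hairpin the ratio of miR-181b-5p to miR-181b-2-3p was 33.5 in ZSWIM8 KO and 9.22 in WT. The arm difference was 1.79 ± 0.74, in the same direction as that of miR-181a-2, and did not pass (adjusted p = 0.209, normal test over 209 hairpins). Both miR-181 5p strands also arise from the chromosome 1 hairpins, so neither arm difference is a change within 1 hairpin alone. The shares of the chromosome 1 and chromosome 9 hairpins in the 5p strands cannot be told apart.

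The errors of the 6 strands in ZSWIM8 KO were 0.974 to 1.06 times those of microRNAs of like abundance. This does not show how closely the replicates agreed, since values of single libraries were not used here. With errors from the deposited F and a t distribution with 4 degrees of freedom, the arm difference of miR-181a-2 no longer passed (adjusted p = 0.488). The share of all hairpins that passed with this reference is not given here. The loss can therefore not be read as particular to miR-181a-2.

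In sgCYRANO the arms of the same hairpins did not differ past the threshold. The ratio of miR-181a-5p to miR-181a-2-3p was 1.41 in sgCYRANO and 1.20 in sgNT, an arm difference of 0.23 ± 0.23 with a 95% interval of -0.23 to 0.69 (adjusted p = 0.969, normal test over 201 hairpins). Of these hairpins 0.498% passed, which was the miR-7 hairpin alone. The ratio of miR-181b-5p to miR-181b-2-3p was 15.4 in sgCYRANO and 10.3 in sgNT, an arm difference of 0.56 ± 0.64 (adjusted p = 0.969, normal test).

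**Figure D4:**
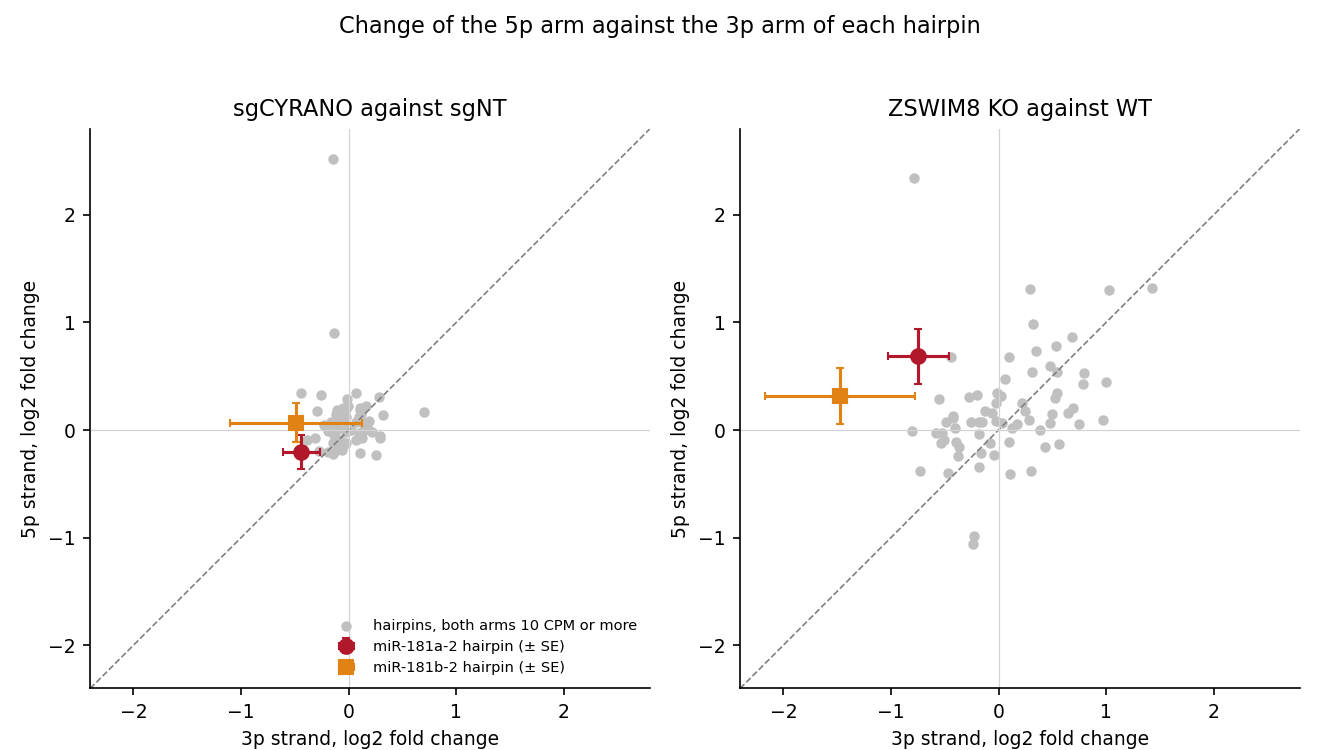
Log2 fold change of the 5p strand against that of the 3p strand for each hairpin with both arms at 10 CPM or more (grey, 70 hairpins in sgCYRANO against sgNT and 71 in ZSWIM8 KO against WT). The dashed line marks equal change of both arms. The miR-181a-2 hairpin (red, ± SE) lies near the line in sgCYRANO and at -0.75 and 0.68 in ZSWIM8 KO, and the scarcer miR-181b-2 hairpin (orange, ± SE) lies on the same side of the line.

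Whether the family behaved differently in the 2 comparisons was tested on the difference of the log2 fold changes, since the comparisons share no libraries. For miR-181a-5p the value in ZSWIM8 KO exceeded that in sgCYRANO by 0.89 ± 0.30, which passed (adjusted p = 0.045, two-sided normal test over 753 microRNAs, of which 6.64% passed). Centred on the median of each comparison, the difference was 0.74 and did not pass (adjusted p = 0.128). For miR-181a-2-3p the difference was -0.31 ± 0.33 (adjusted p = 0.780, normal test), with a 95% interval of -0.95 to 0.34. The differences of miR-181b-5p, miR-181d-5p, miR-181c-5p and miR-181b-2-3p did not pass either, with adjusted p-values of 0.811, 0.811, 0.512 and 0.749 (normal test). The arm difference of miR-181a-2 was larger in ZSWIM8 KO than in sgCYRANO by 1.20 ± 0.45, which did not pass (adjusted p = 0.180, normal test over 174 hairpins, of which 0.575% passed).

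The 3 microRNAs outside the family with group levels nearest those of miR-181a-5p were miR-30d-3p, miR-345-5p and miR-1303. Their root mean square distances over the 4 group means were 0.19, 0.21 and 0.27 on the log2 scale. miR-30d-3p had 56.0 CPM in sgCYRANO and 62.8 CPM in sgNT, and 72.4 CPM in ZSWIM8 KO and 45.2 CPM in WT. Since the choice used all 4 group means, their fold changes follow in part from it and are given as a description. In ZSWIM8 KO the log2 fold changes of miR-30d-3p, miR-345-5p and miR-1303 were 0.68, 0.41 and 0.64 in the authors' deposited table. In sgCYRANO they were -0.16, -0.03 and -0.61 in the authors' deposited table, in the same order.

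A list of other haematopoietic microRNAs was set beside the family, with levels from 0.180 CPM for miR-155-5p to 15699 CPM for miR-128-3p in sgCYRANO. The list of 10 held the pan-haematopoietic miR-142 strands, the granulocytic miR-223-3p, miR-146a-5p, miR-24-3p, miR-128-3p, miR-342-3p and miR-125b-5p, and the lymphoid miR-150-5p and miR-155-5p. miR-150-5p had no row in either table and miR-155-5p none in the second. In sgCYRANO 9 were measured and 0 passed, where 0.119% of all microRNAs tested passed. At an unadjusted p under 0.05 there were 2, against 5.85% of all, and the median log2 fold change was 0.02 beside 0.01 over all. In ZSWIM8 KO 8 were measured, of which 2 rose, 1 fell and 5 did not pass, where 9.91% of all microRNAs tested passed. The median log2 fold change was 0.10 beside 0.08 over all. The rises in the authors' deposited table were 0.56 ± 0.11 for miR-24-3p (adjusted p = 3.02e-05) and 0.80 ± 0.19 for miR-342-3p (adjusted p = 0.00077), and the fall was -2.09 ± 0.53 for miR-125b-5p (adjusted p = 0.0018). miR-125b-5p was scarce, at 2.25 CPM in ZSWIM8 KO and 9.97 CPM in WT. The most abundant of the list, miR-128-3p, had 15396 CPM in ZSWIM8 KO and 14312 CPM in WT and did not pass.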

How the data were processed

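Small RNA of 12 K562 libraries was prepared with a NEBNext kit from total RNA, per the labels' protocols. The tools in the submitters' processing notes are STAR, featureCounts, edgeR, bcl2fastq and FastQC 0.11.2, with the build hg19 and no stated roles. Each deposited table is 1 comparison by the authors. Per the file headers its columns are the log2 fold change, the mean CPM in log2 units, an F statistic (treated as a score), a p-value and its adjusted value. Adjusting the deposited p-values over all rows matched the adjusted column to 1.09e-06, so no tested row is missing.

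Group means were recovered with prior counts of 2 (mean log2 CPM) and 0.125 (log2 fold change). They summed to 1000000 CPM in every group, so the fit had been given values scaled to CPM and set its counting error as for libraries of that size. Library totals were taken as the 3 steps per group that accounted for all group means under 1.33 CPM within 0.0006 CPM (263 in sgCYRANO, 281 in sgNT, 275 in ZSWIM8 KO and 299 in WT). Approximate reads are the mean CPM times the group total.

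A standard error is the size of the log2 fold change divided by the normal deviate that its p-value implies. Differences between arms and between comparisons were tested against a normal distribution with Benjamini-Hochberg adjustment, treating errors as independent, although the arms share libraries. Arms were paired by name. The test of the difference between arm differences was added after the data were seen. The procedures were run on simulated data built with the same formulas and with arms drawn independently. Such data cannot test the errors read from the authors' p-values or the effect of shared libraries. Python 3.11.15, scipy 1.17.1 and matplotlib 3.10.9 were used.

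The family, lists and tests were chosen with earlier results of these data known. The named microRNAs are all measured miR-181 strands, strands sharing their seed, the 3 nearest miR-181a-5p in level, list members that passed or were most abundant, and miR-7-5p. The design had set libraries to be left out and a replicate block where library values were given.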

Additional observations from a re-analysis of the deposited data

How the results depend on the processing

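Of the alternatives to the reported values, 134 kept the direction and, where tested, the side of the threshold. A call was gained in 10 and lost in 2, and 0 reversed. The 10 hold counts of called strands beside the strands themselves, so the same call is entered repeatedly. The 134 include group means and ratios of means, which carry no test. In sgCYRANO no miR-181 strand was called under any alternative run. In ZSWIM8 KO the count of called strands was 2 with p-values adjusted over microRNAs at 10 CPM or more or at 1 CPM or more, and 1 after centring on the median or the trimmed mean. The 2 were miR-181a-5p (log2 fold change 0.68, adjusted p = 0.027 and 0.045) and miR-181a-2-3p (-0.75, adjusted p = 0.030 and 0.049). After centring, the 1 was miR-181a-2-3p, at -0.87 (median, adjusted p = 0.022) and -0.89 (trimmed mean, adjusted p = 0.019). Holm adjustment and the deposited F read with 4 denominator degrees of freedom left 0. The arm difference of miR-181a-2 in ZSWIM8 KO, 1.43, was called with errors from the deposited F and among hairpins at 10 CPM or more, and was lost with a t reference of 4 degrees of freedom (adjusted p = 0.488), an alternative chosen after seeing the data. The difference of miR-181a-5p between comparisons was 0.74 after centring and was lost (adjusted p = 0.128). Why these calls moved was not tested beyond the change of scale or of microRNAs adjusted over that each alternative makes. Strands under a CPM minimum have no value there. Fits without single libraries were not run, since no library values were used. No paired analysis was possible because the tables hold no values per library. Depth limits miR-181c-5p and miR-181b-2-3p, whose ZSWIM8 KO and WT means rest on 8 to 16 reads.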
